A study of Mus musculus with 40 samples.

Results

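Interferon-stimulated genes were followed as a module of 36 named genes in the livers of mice given TCDD, a persistent dioxin that binds and activates the aryl hydrocarbon receptor (AhR). The members were chosen by name, all 36 were found among the 55359 gene identifiers of the count tables, and all 36 passed the filter on low counts that left 15373 genes for testing. The animals were male C57BL/6 mice, gavaged 7 times at intervals of 4 days with sesame oil alone (vehicle, n = 5) or with TCDD in sesame oil at 0.03, 0.1 or 0.3 μg/kg, at 1 or 3 μg/kg, or at 10 or 30 μg/kg (n = 5 each). By the labels the mice were 30 days old when the study began and 58 days old when it ended on day 28, and livers were taken within zeitgeber time 0 to 3, the first hours of light. Each of the 40 RNA-Seq libraries came from the whole liver tissue of 1 mouse, so that every value averages over all the cell types of the organ. Library totals over genes were 15.5 to 21.0 M counts (median 17.5 M), and levels are given as CPM, the count divided by the library total in M after TMM scaling.

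Type I interferons are secreted when a cell senses foreign nucleic acid, and interferons signal from their receptors through the JAK kinases and STAT proteins. Type I interferons activate a complex that contains STAT2 and IRF9 and binds the interferon-stimulated response element (ISRE), whereas interferon gamma acts mainly through the gamma-activated site (GAS). The induced genes encode nucleic acid sensors, proteins that block viral RNA and budding, GTPases that attack pathogen vacuoles, and the machinery that cuts and loads peptides for MHC class I, and Kupffer cells and hepatocytes of the liver can both express them.

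The labels held for exposure and tissue, and 2 libraries stood apart for the module. The summed level of 6 AhR target genes (Cyp1a1, Cyp1a2, Cyp1b1, Ahrr, Nqo1 and Tiparp) was 914 to 1245 CPM in vehicle mice and 26719 to 35506 CPM at 30 μg/kg. The summed level of 6 hepatocyte markers was 97131 to 117133 CPM in vehicle mice. Replicate 1 of vehicle had the highest level of its group for 29 of the 36 members, and replicate 5 of 30 μg/kg had the highest for 27 of 36, where over all genes tested the shares were 23.9% and 22.7%. Member calls against vehicle that rest on either library are given with and without it.

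The promoters of members that moved in opposite directions are printed because they hold the same element. A window from 250 bases before to 50 bases after the RefSeq start was at hand for 27 of the 36 members (RefSeq, GRCm38.p6), and not for Zbp1, Usp18, Iigp1, Parp14, Mx2, Dhx58, Gbp6, Rtp4 and Mx1. The ISRE core was searched as GAAANNGAAA, where N is any base, on both strands, and its matches are in capitals. The stretches of 100 bases come from Isg15 (chr4:156200819-156200918, minus strand), Ifit1 (chr19:34640769-34640868, plus), Bst2 (chr8:71537533-71537632, minus), Oas1a (chr5:120907526-120907625, minus), Trim30a (chr7:104465194-104465293, minus), Gbp3 (chr3:142559924-142560023, plus) and Igtp (chr11:58199456-58199555, plus). All 7 lie upstream of the start and outside annotated exons, and each is written in the direction of its gene.
Isg15: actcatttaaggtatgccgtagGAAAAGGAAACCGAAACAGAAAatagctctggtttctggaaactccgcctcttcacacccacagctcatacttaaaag
Ifit1: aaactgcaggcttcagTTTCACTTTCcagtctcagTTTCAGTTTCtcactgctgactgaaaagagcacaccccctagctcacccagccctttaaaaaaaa
Bst2: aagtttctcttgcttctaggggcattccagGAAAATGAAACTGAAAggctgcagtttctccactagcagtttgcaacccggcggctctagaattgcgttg
Oas1a: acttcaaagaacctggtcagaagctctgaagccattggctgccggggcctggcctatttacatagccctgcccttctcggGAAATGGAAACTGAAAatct
Trim30a: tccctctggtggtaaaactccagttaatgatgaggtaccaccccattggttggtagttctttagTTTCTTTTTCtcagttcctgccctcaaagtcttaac
Gbp3: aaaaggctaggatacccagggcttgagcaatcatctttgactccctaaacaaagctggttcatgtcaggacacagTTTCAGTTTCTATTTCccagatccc
Igtp: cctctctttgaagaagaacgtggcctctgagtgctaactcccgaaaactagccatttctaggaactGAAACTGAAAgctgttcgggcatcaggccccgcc
Isg15 had 3 matches in its stretch, Ifit1, Bst2, Oas1a and Gbp3 had 2, and Trim30a and Igtp had 1. Isg15, Ifit1 and Bst2 fell at 30 μg/kg, Oas1a, Trim30a and Gbp3 rose, and Igtp was not called, all under TMM scaling. With each library scaled by its total count alone, the falls of Isg15, Ifit1 and Bst2 were not called and Igtp was called higher (1.11). The matches of Isg15, Bst2, Oas1a and Gbp3 overlap one another, so that 1 unbroken run carries all of them in each gene.

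Over the windows, the ISRE core was found in 15 of 27 members (55.6%), beside 3.99% of the 27025 genes of the reference with a window. The GAS, searched as TTCNNNGAA, which reads the same on both strands, was found in 7 of 27 members (25.9%) beside 9.55% of genes. The core of the dioxin response element to which AhR binds, searched as GCGTG on both strands, was found in 12 of 27 members (44.4%) beside 35.2% of genes. Under TMM scaling the ISRE core was held by 4 of 6 members that rose at 30 μg/kg, 5 of 8 that fell and 6 of 13 that were not called. By role, it was held by 5 of 5 GTPase genes (Gbp2, Gbp3, Gbp7, Irgm1 and Igtp), 5 of 8 antiviral effectors and 0 of 3 antigen processing genes. In Bst2 an ISRE core and a GAS match overlap. A match is a description of letters, and no binding was measured.

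**Figure D1:**
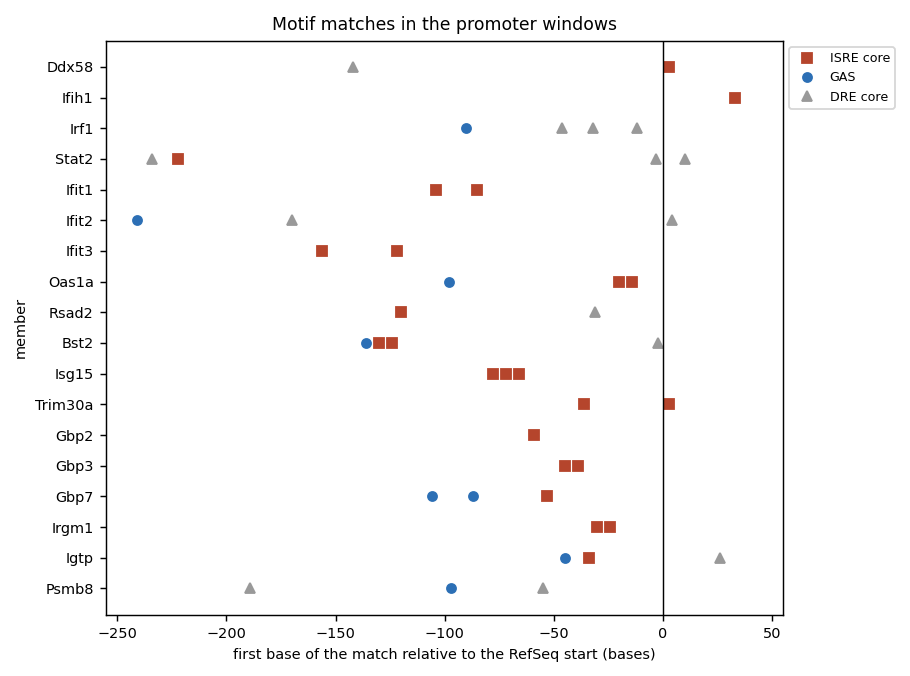
Positions of motif matches in the promoter windows of the 18 members that held an ISRE core or a GAS match. The horizontal axis is the first base of each match relative to the RefSeq start in bases, squares are the ISRE core, circles the GAS and triangles the core of the dioxin response element. Most ISRE core squares lie just upstream of the start, and the square farthest upstream is that of Stat2. Those of Ddx58 and Ifih1 lie after the start, and Trim30a has squares on both sides of it.

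Across the doses, the module did not move as a block. Tests came from the quasi-likelihood fit of edgeR, adjusted by the Benjamini-Hochberg method over 15373 genes, and a call needed an adjusted p under 0.05 together with a fold of 1.5 or more. At 0.03, 0.1 and 0.3 μg/kg no member was called by edgeR or by DESeq2, beside 0.0195%, 0.0976% and 0.468% of all genes, and 0, 1 and 2 members had an unadjusted p under 0.05. At 1 μg/kg 6 members rose and 1 fell, beside 2.15% and 0.637% of all genes, and with total-count scaling 7 rose and 0 fell, beside 3% and 0.436%. At 3 μg/kg 6 rose and 1 fell, beside 4.53% and 2.22% of all genes. In whole liver, fewer cells of a type and less RNA per cell cannot be told apart, here and in every result that follows.

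Over all 40 libraries under TMM scaling the falls outnumbered the rises at the 2 highest doses, narrowly at 10 μg/kg. The rises outnumbered the falls when each library was scaled by its total count alone (7 and 4 at 10 μg/kg, 11 and 4 at 30 μg/kg). Under that scaling 19.4% of all genes rose and 4.92% fell at 10 μg/kg, and 41.6% rose and 10.1% fell at 30 μg/kg. Under TMM scaling, at 10 μg/kg 6 members rose and 7 fell, beside 13.6% and 8.13% of all genes. At 30 μg/kg 7 rose and 11 fell, beside 23.2% and 18.9% of all genes, and 18 of 36 were not called. At 10 μg/kg without replicate 1 of vehicle, Ifit1, Rsad2 and Iigp1 were not called and Gbp3 was called higher (1.05). The rises then outnumbered the falls. They did so too with numbering run as a covariate and with a minimum mean of 50 counts, where Iigp1 lost its call and Gbp3 gained one. The median log2 fold change of the 36 members was 0.28 at 1, 0.11 at 3, -0.02 at 10 and -0.17 at 30 μg/kg, beside medians over all genes of 0, 0, 0.01 and 0.03. Over all doses 22 members were called at least once, none of them in both directions, and 14 were never called. The same counts were not taken over all genes, so these numbers are not compared with other genes. On the linear slope over the ordered dose steps, called by adjusted p alone, 7 members rose and 11 fell, beside 31.5% and 26.1% of all genes, and with total-count scaling 19 rose and 6 fell, beside 55.6% and 12.3%. These doses share the vehicle mice and are not independent of one another.

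Total-count scaling shifted the median of all genes to 0.22 at 10 μg/kg and to 0.52 at 30 μg/kg on the log2 scale. The 4 that still fell at 30 μg/kg were Dhx58, Irf9, Stat2 and Mx2. Ifih1, Ifit1, Oasl1, Bst2, Isg15, Herc6 and Iigp1 were then not called, each still with a negative value, and Ddx58, Mx1, Xaf1 and Igtp were called higher. The 7 members that rose under TMM scaling rose under this scaling too. Within the libraries of the first numbering run of the sample titles 20 members were called at 30 μg/kg. Within those of the second run 11 were. No share of all genes is set beside these counts, so they describe the members alone. The calls lost within the second run were the falls of Ifih1, Ifit1, Oasl1, Bst2, Isg15, Herc6 and Iigp1, the same as with total-count scaling, and the 7 rises held. Within the first run Gbp3 was not called (0.43), and Irf7 (-0.74), Parp14 (-0.79) and Irgm1 (-1.04) were called lower.

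**Figure D2:**
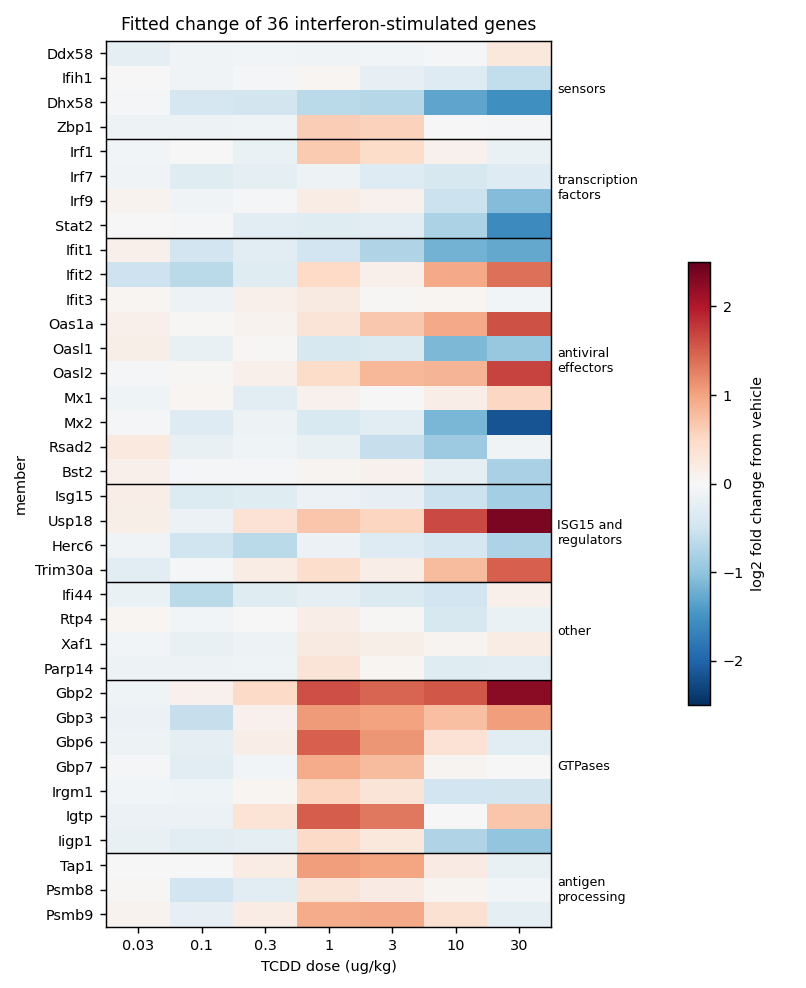
Fitted log2 fold change from vehicle of the 36 members (rows, grouped by role) at the 7 TCDD doses (columns, μg/kg), with red for higher, blue for lower and color on a linear scale, under TMM scaling. The GTPase and antigen processing rows are reddest at 1 and 3 μg/kg, whereas Stat2, Mx2 and Dhx58 are bluest at 30 μg/kg, where scaling to total counts left 4 of the 11 falls.

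Among the 4 sensors of nucleic acid, 2 fell at 30 μg/kg and none rose under TMM scaling, beside 18.9% and 23.2% of all genes. With total-count scaling Dhx58 alone fell and Ddx58 was called higher (0.75). Dhx58 encodes LGP2, a regulator of the RNA helicase sensors. Its level in the 5 vehicle mice was 17.7, 9.46, 10.3, 10.5 and 10.4 CPM, at 1 μg/kg 7.77, 7.77, 7.18, 7.27 and 6.48, and at 30 μg/kg 3.98, 4.24, 3.39, 3.57 and 4.93. Every mouse at 1 and at 30 μg/kg lay below every vehicle mouse, and replicate 1 of vehicle was far above the rest of its group. The fitted change was -0.68 ± 0.18 at 1 μg/kg (log2 fold change ± SE, adjusted p = 0.0218) and -1.54 ± 0.18 at 30 μg/kg (adjusted p = 4.29e-09). Dhx58 was called lower at each of the 4 highest doses. Without replicate 1 of vehicle the change at 1 μg/kg was -0.48 and at 3 μg/kg -0.52, neither of them called, and it was not called at 1 μg/kg under total-count scaling or without replicate 5 of that dose (-0.64).

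The other sensors moved less. Ddx58, which encodes the RNA sensor RIG-I, was at 38.4, 28.9, 25.6, 31.2 and 29.4 CPM in vehicle mice and at 32.7, 27.4, 33.1, 41.7 and 50.6 CPM at 30 μg/kg. The groups overlapped, with 2 treated mice above the vehicle range, and the change was 0.27 ± 0.14 (adjusted p = 0.103). Ifih1, which encodes the long RNA sensor MDA5, averaged 23.8 ± 7.56 CPM in vehicle mice (SD, n = 5) and 15.6 ± 2.84 CPM at 30 μg/kg, a fall of -0.61 ± 0.21 (adjusted p = 0.0146) that was not called with total-count scaling (-0.13). The call was also lost in 4 of the 10 fits that left out 1 library, where the change was -0.58 to -0.41, including those without replicate 1 of vehicle (-0.41) and replicate 5 of 30 μg/kg (-0.56). Zbp1, a sensor of Z-form nucleic acid, averaged 6.25 ± 1.96 and 6.11 ± 3.14 CPM in the same groups and was not called at any dose.

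Of the 4 transcription factors of the pathway, Stat2 and Irf9 fell at 30 μg/kg. Over all 40 libraries under TMM scaling, Irf1 and Irf7 were not called at any dose. Stat2 and Irf9 encode subunits of the complex that binds the ISRE. Stat2 was at 123, 96.9, 115, 87.5 and 88.4 CPM in vehicle mice and at 52.2, 22.3, 21.2, 30.3 and 44.1 CPM at 30 μg/kg. All 5 treated mice were below all 5 vehicle mice. Stat2 fell by 0.79 on the log2 scale at 10 μg/kg (SE 0.17, adjusted p = 0.00025) and by 1.59 at 30 μg/kg (SE 0.17, adjusted p = 3.11e-10), which is 3.01-fold. With total-count scaling the fall at 10 μg/kg was not called (-0.58). Between 10 and 30 μg/kg it fell further (-0.79 ± 0.17, adjusted p = 0.000282), a call lost with total-count scaling (-0.54) and within the first numbering run (-0.66).

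Irf9 averaged 37.6 ± 4.75 CPM in vehicle mice and 17.8 ± 4.36 CPM at 30 μg/kg (SD, n = 5 each), a fall of -1.08 ± 0.14 (adjusted p = 2.77e-08) with all 5 treated mice below the vehicle range. At 10 μg/kg its change of -0.54 ± 0.14 (adjusted p = 0.00265) was under the fold threshold. Irf1, a factor induced mainly by interferon gamma, averaged 23.5 ± 1.72 CPM in vehicle mice, 37.0 ± 8.78 at 1 μg/kg and 20.9 ± 11.6 at 30 μg/kg. Its change at 1 μg/kg was 0.66 ± 0.24 (adjusted p = 0.122) although 4 of 5 mice were above the vehicle range, and it was called there when libraries were scaled to total counts or when vehicle and that dose were fitted alone. Irf7, the factor that amplifies type I interferon production, had a change of -0.32 ± 0.19 at 30 μg/kg (adjusted p = 0.152).

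The 10 antiviral effectors went both ways, and close relatives separated. Under TMM scaling Oasl2, Oas1a and Ifit2 rose at 30 μg/kg, 3 in all, and Mx2, Ifit1, Oasl1 and Bst2 fell, 4 in all. Over all genes 23.2% rose and 18.9% fell. With total-count scaling the 3 rises held, Mx1 was called higher (1.00) and Mx2 alone of the 4 still fell, beside 41.6% and 10.1% of all genes. Mx2 belongs to a family of dynamin-like antiviral GTPases whose activity was not measured here. Its level was 10.4, 4.23, 7.57, 7.28 and 7.45 CPM in vehicle mice and 1.90, 1.91, 1.26, 1.07 and 2.19 CPM at 30 μg/kg. The highest treated mouse was below the lowest vehicle mouse. The change was -2.15 ± 0.27 (adjusted p = 8.64e-09), a 4.44-fold fall, after -1.15 ± 0.25 at 10 μg/kg (adjusted p = 0.000492), and the step from 10 to 30 μg/kg was itself called (-1.0 ± 0.27, adjusted p = 0.00353). Mx1, of which C57BL/6 mice carry a defective allele, averaged 1.88 ± 0.816 and 2.72 ± 0.979 CPM in vehicle and at 30 μg/kg, and its change of 0.52 ± 0.32 was not called under TMM scaling.

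Bst2 encodes the membrane tether tetherin. It was at 154, 171, 201, 145 and 160.7 CPM in vehicle mice and at 100, 71.8, 56.0, 87.3 and 158 CPM at 30 μg/kg. Replicates 1 to 4 of the dose were below the whole vehicle range, and replicate 5 lay inside it. Bst2 fell by 0.81 on the log2 scale (SE 0.17, adjusted p = 0.000103), was not called at any lower dose or with total-count scaling (-0.35), and fell between 10 and 30 μg/kg (-0.59 ± 0.17, adjusted p = 0.00632). That last call was lost in 5 of the 10 fits without 1 library, where the change was -0.58 to -0.47. Per kilobase of exon, Bst2 was the highest of all 36 members in vehicle mice, at 184 RPKM, followed by Iigp1 at 33.5 RPKM and Stat2 at 17.2 RPKM.

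The oligoadenylate synthetase family split under TMM scaling, whereas with total-count scaling the fall of Oasl1 was not called (-0.47). Oas1a makes the messenger that activates RNase L, and Oasl1 and Oasl2 are its relatives. Oasl2 averaged 4.80 ± 1.12 CPM in vehicle mice and 15.5 ± 4.74 CPM at 30 μg/kg (SD, n = 5 each), a rise of 1.68 ± 0.18 (adjusted p = 2.1e-10). Oas1a averaged 2.27 ± 0.511 and 6.88 ± 2.47 CPM, a rise of 1.59 ± 0.22 (adjusted p = 1.18e-07). Oasl1 averaged 13.2 ± 2.59 and 6.86 ± 2.42 CPM, a fall of -0.94 ± 0.18 (adjusted p = 2.99e-05). For each of these 3 genes all 5 mice at 30 μg/kg were outside the vehicle range. Oas1a and Oasl2 were called from 3 μg/kg upward, where Oas1a was at the edge (0.67 ± 0.23, adjusted p = 0.0497) and lost its call in 7 of 10 fits without 1 library, with changes of 0.55 to 0.70.

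The Ifit family, which binds foreign RNA, split as well under TMM scaling, and with total-count scaling Ifit1 was not called (-0.81). Ifit2 averaged 2.86 ± 0.936 CPM in vehicle mice and 7.54 ± 1.15 CPM at 30 μg/kg, with all 5 treated mice above the vehicle range, and rose by 1.39 ± 0.32 (adjusted p = 0.00039). Ifit1 was at 14.3, 5.66, 5.50, 4.69 and 2.65 CPM in vehicle mice and at 3.19, 3.33, 3.17, 1.75 and 2.11 CPM at 30 μg/kg. The groups overlapped, since 3 treated mice were above the lowest vehicle mouse, and replicate 1 of vehicle was far above the next. Ifit1 fell by 1.29 on the log2 scale (SE 0.35, adjusted p = 0.00199), and without both replicate 1 of vehicle and replicate 5 of 30 μg/kg it was not called (-0.70). Ifit3 had a change of -0.08 ± 0.22. Rsad2, which encodes viperin, fell only at 10 μg/kg (-0.90 ± 0.29, adjusted p = 0.0138), a call lost without replicate 1 of vehicle (-0.45) or replicate 5 of that dose (-0.75) and with total-count scaling (-0.69), and it stood at -0.08 ± 0.28 at 30 μg/kg.

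Among ISG15 and the ubiquitin-type regulators, the modifier ISG15 and its remover moved apart under TMM scaling, and with total-count scaling the fall of Isg15 was not called (-0.39). Usp18, the protease that removes ISG15 from proteins and restrains signaling at the type I receptor, was at 9.75, 6.84, 5.63, 4.41 and 6.45 CPM in vehicle mice. It was at 12.4, 13.0, 10.0, 8.43 and 9.92 CPM at 1 μg/kg and at 30.9, 26.2, 36.9, 33.7 and 43.4 CPM at 30 μg/kg. At 1 μg/kg 4 of 5 mice were above the vehicle range, and at 30 μg/kg all 5 were. The rise was 0.69 ± 0.20 at 1 μg/kg (adjusted p = 0.0366) and 2.36 ± 0.20 at 30 μg/kg (adjusted p = 1.23e-12), a 5.14-fold change and the largest in the module at that dose. The call at 1 μg/kg was lost in 8 of the 10 fits without 1 library, where the change was 0.58 to 0.72, and Usp18 was not called at 3 μg/kg (0.54 ± 0.20, adjusted p = 0.0772).

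Isg15 itself, the ubiquitin-like modifier, was at 10.6, 12.5, 11.3, 6.93 and 5.73 CPM in vehicle mice and at 6.34, 5.03, 3.28, 3.33 and 8.26 CPM at 30 μg/kg. The groups overlapped, with 3 of 5 treated mice below the vehicle range. Isg15 fell by 0.85 on the log2 scale (SE 0.28, adjusted p = 0.00937). Herc6, the mouse ligase that attaches ISG15, fell by 0.77 (SE 0.26, adjusted p = 0.0106), and without replicate 1 of vehicle it was not called (-0.45). Trim30a, a tripartite motif protein that restrains Toll-like receptor signaling, averaged 5.78 ± 1.43 CPM in vehicle mice and 16.3 ± 2.75 CPM at 30 μg/kg, and rose by 1.49 ± 0.22 (adjusted p = 3.76e-07).

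**Figure D3:**
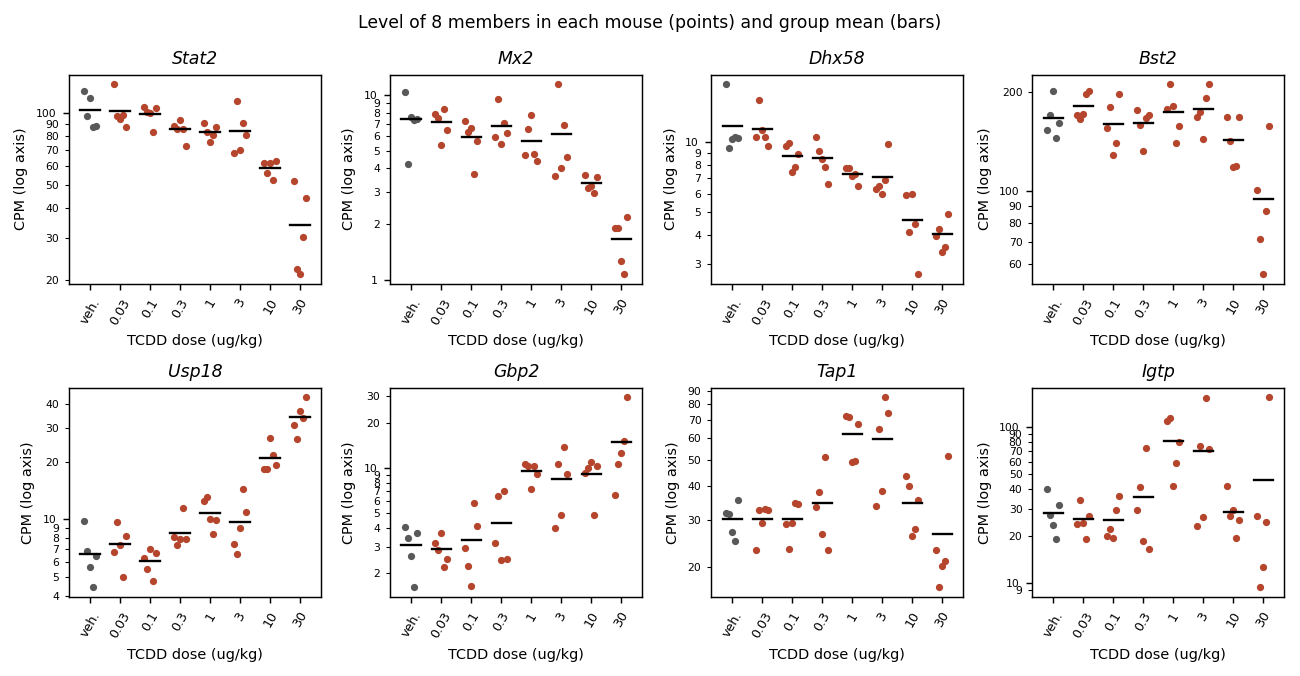
Level of 8 members in every mouse (points, CPM on a log axis) and group mean (bars) in vehicle (gray) and at 7 TCDD doses (μg/kg, red). At 30 μg/kg the Stat2, Mx2 and Dhx58 points lie below all vehicle points and the Usp18 and Gbp2 points above them, whereas Tap1 is highest at 1 and 3 μg/kg and Igtp ranges from 9.40 to 155 CPM at 30 μg/kg.

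The guanylate-binding proteins and immunity-related GTPases, which act on pathogen vacuoles, held 3 of the 6 members that rose at 1 μg/kg. Gbp2 was at 4.08, 3.42, 2.59, 1.61 and 3.72 CPM in vehicle mice, at 10.6, 10.3, 7.24, 10.3 and 9.13 CPM at 1 μg/kg, and at 6.62, 10.6, 12.5, 15.2 and 29.5 CPM at 30 μg/kg. All mice of both doses were above the vehicle range. Gbp2 rose by 1.62 ± 0.36 at 1 μg/kg (adjusted p = 0.00535) and by 2.26 ± 0.36 at 30 μg/kg (adjusted p = 1.69e-06), which was 1.83 without replicate 5 of that dose. Gbp2 was called higher at each of the 4 highest doses, and no fit without 1 library removed its call at 1 μg/kg. Within the first and second numbering runs taken alone it was not called at 1 μg/kg (1.47 and 1.86) or at 3 μg/kg (0.93 and 2.10).

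Gbp3 rose early and stayed near that level. It was at 8.16, 6.34, 3.17, 2.80 and 2.94 CPM in vehicle mice, at 11.4, 9.86, 7.94, 9.75 and 10.4 CPM at 1 μg/kg, and at 8.33, 7.82, 9.57, 9.53 and 13.8 CPM at 30 μg/kg. In each dose 4 of 5 mice were above the vehicle range. The rise was 1.06 ± 0.30 at 1 μg/kg (adjusted p = 0.0356) and 1.05 ± 0.30 at 30 μg/kg (adjusted p = 0.00289), and at 10 μg/kg it was not called (0.74 ± 0.30, adjusted p = 0.0548), although DESeq2 (0.74), total-count scaling (0.96), a minimum mean of 50 counts (0.77) and numbering run as a covariate (0.82) each called it there. The call at 1 μg/kg was lost in 7 of the 10 fits without 1 library, with changes of 0.92 to 1.07, and the call at 3 μg/kg in 5 of 10, with changes of 0.81 to 0.92.

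Gbp6 rose at 1 μg/kg and stood on the threshold at 3 μg/kg. It was at 7.06, 4.91, 3.50, 2.80 and 4.66 CPM in vehicle mice, at 17.8, 13.1, 6.74, 14.3 and 12.7 CPM at 1 μg/kg, and at 4.72, 1.66, 1.87, 3.89 and 6.83 CPM at 30 μg/kg. At 1 μg/kg 4 of 5 mice were above the vehicle range, and at 30 μg/kg 2 of 5 were below it. The change was 1.49 ± 0.37 at 1 μg/kg (adjusted p = 0.0139) and -0.28 ± 0.37 at 30 μg/kg (adjusted p = 0.543). The first call was lost without replicate 1 of 1 μg/kg (1.34) and without replicate 4 of vehicle (1.35). At 3 μg/kg Gbp6 missed the threshold (1.10 ± 0.37, adjusted p = 0.0506), and it was called there by DESeq2 (1.10), with total-count scaling (1.17), with no filter (1.11), with a minimum mean of 50 counts (1.10), with vehicle and that dose fitted alone (1.11) and with numbering run as a covariate (1.12).

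Iigp1, a GTPase of the immunity-related family, went the other way at the top doses. It was at 310, 176, 155, 199 and 135 CPM in vehicle mice and at 77.0, 118, 99.8, 70.7 and 128 CPM at 30 μg/kg. All treated mice were below the vehicle range, and replicate 1 of vehicle was the highest mouse. With total-count scaling its fall at 30 μg/kg was not called (-0.50). Under TMM scaling Iigp1 fell by 0.98 on the log2 scale at 30 μg/kg (SE 0.30, adjusted p = 0.00471) and by 0.75 at 10 μg/kg (SE 0.29, adjusted p = 0.0489), and the second call was lost in 6 of 10 fits without 1 library (-0.80 to -0.52).

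Igtp, the GTPase also called Irgm3, was not called at any dose under TMM scaling over all 40 libraries, and its mice differed widely. It was at 39.9, 27.2, 23.8, 19.2 and 31.6 CPM in vehicle mice, at 109, 115, 41.8, 59.1 and 80.3 CPM at 1 μg/kg, and at 26.9, 9.40, 12.7, 24.9 and 155 CPM at 30 μg/kg. All 5 mice at 1 μg/kg were above the vehicle range, and at 30 μg/kg 1 mouse was above it and 2 were below it. The change was 1.51 ± 0.51 at 1 μg/kg (adjusted p = 0.0952) and 0.69 ± 0.50 at 30 μg/kg (adjusted p = 0.252), and without replicate 5 of 30 μg/kg the latter turned to -0.64. Igtp was called higher at 1 μg/kg when vehicle and that dose were fitted alone (1.52), and at 30 μg/kg with total-count scaling (1.11). Irgm1 had a change of -0.47 ± 0.24 at 30 μg/kg, and without replicate 5 it was called lower (-0.88). Gbp7 was not called at any dose (-0.02 ± 0.40 at 30 μg/kg).

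Of the 3 antigen processing genes, Tap1 and Psmb9 rose at 1 and 3 μg/kg, and no gene of this role was called against vehicle at 10 or 30 μg/kg. Tap1 encodes a subunit of the transporter that carries peptides to MHC class I. It was at 31.7, 31.4, 26.9, 25.0 and 35.3 CPM in vehicle mice, at 72.6, 71.7, 48.8, 49.2 and 67.6 CPM at 1 μg/kg, and at 23.1, 16.8, 20.2, 21.1 and 51.7 CPM at 30 μg/kg. All mice at 1 μg/kg were above the vehicle range, and at 30 μg/kg 4 were below it while replicate 5 was above it. Tap1 rose by 1.04 ± 0.24 at 1 μg/kg (adjusted p = 0.00767) and by 0.98 at 3 μg/kg (adjusted p = 0.00578). Within the first numbering run alone it was called at 1 μg/kg (1.10) but not at 3 μg/kg (0.59). Within the second run it was called at neither dose (0.95 and 1.41). At 30 μg/kg the change was -0.18 ± 0.24, and without replicate 5 Tap1 was called lower (-0.59).

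Psmb9, a catalytic subunit of the immunoproteasome, was at 17.1, 14.1, 14.5, 11.7 and 16.2 CPM in vehicle mice, at 32.1, 34.7, 20.2, 24.8 and 27.7 CPM at 1 μg/kg, and at 16.5, 8.11, 8.58, 8.57 and 21.7 CPM at 30 μg/kg. Again all mice at 1 μg/kg were above the vehicle range, and at 30 μg/kg 3 were below it and 1 was above it. Psmb9 rose by 0.92 ± 0.23 at 1 μg/kg (adjusted p = 0.0136), a call lost without replicate 4 of vehicle (0.85). It rose by 0.95 at 3 μg/kg (adjusted p = 0.00489). Within the first and second numbering runs taken alone Psmb9 was not called at 1 μg/kg (0.93 and 0.92) or at 3 μg/kg (0.67 and 1.31). Psmb8, the neighboring immunoproteasome subunit, had changes of 0.32 ± 0.25 at 1 μg/kg and -0.07 ± 0.25 at 30 μg/kg, neither called. Tap1 and Psmb9 are transcribed away from each other from RefSeq starts 226 bases apart on chromosome 17, and the 225 bases between them (chr17:34187331-34187555, GRCm38.p6) held 0 matches of the ISRE core or GAS and 2 of the dioxin response element core. An annotated Psmb9 transcript crosses that interval into the first exon of Tap1, and the counts carry no strand, so reads there cannot be assigned to either gene.

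Xaf1, Rtp4, Parp14 and Ifi44, interferon-induced genes of other functions, were not called at any dose under TMM scaling over all 40 libraries. With total-count scaling Xaf1 was called higher at 30 μg/kg (0.65). Parp14, an ADP-ribosyltransferase, was at 43.5, 32.8, 26.8, 30.7 and 27.5 CPM in vehicle mice and at 22.7, 17.6, 26.0, 27.5 and 40.5 CPM at 30 μg/kg. The groups overlapped, with 3 treated mice below the vehicle range, and the change was -0.27 ± 0.19 (adjusted p = 0.252). The changes of the other 3 genes at 30 μg/kg were 0.18 ± 0.21 for Xaf1, -0.16 ± 0.18 for Rtp4 and 0.13 ± 0.36 for Ifi44.

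Tested directly, the 2 highest doses differed for 9 members. From 10 to 30 μg/kg Oasl2, Oas1a, Usp18, Trim30a and Rsad2 rose and Stat2, Bst2, Mx2 and Psmb9 fell, 5 and 4 of 36, beside 10.6% of all genes in each direction. Without replicate 5 of 30 μg/kg Irf1 (-0.69), Irf9 (-0.70), Gbp6 (-0.98) and Tap1 (-0.79) were called lower too. The rises of Oas1a (0.51) and Rsad2 (0.75) were then not called, so that the falls outnumbered the rises. With RLE size factors 5 rose and 2 fell, beside 10.9% and 10.3%. With total-count scaling, which shifted the median of all genes to 0.30, 6 rose and 1 fell, beside 20.6% and 6.32%, and the falls of Stat2, Bst2 and Psmb9 were not called. Usp18 rose by 0.71 ± 0.19 (adjusted p = 0.003) and Oasl2 by 0.83 ± 0.17 (adjusted p = 0.000192). The rise of Rsad2 (0.82 ± 0.28, adjusted p = 0.0242) was lost in 5 of 10 fits without 1 library, and the fall of Psmb9 (-0.59 ± 0.23, adjusted p = 0.044) in 6 of 10, with changes of 0.66 to 0.79 and of -0.62 to -0.41. The rise of Oas1a was lost in 3 of 10, at 0.45 to 0.56.

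The difference between 1 and 30 μg/kg was tested after these values had been seen, because the early risers Gbp6, Tap1 and Psmb9 were low at the top dose. The other members that rose at 1 μg/kg, Usp18, Gbp2 and Gbp3, were called higher than vehicle at 30 μg/kg too. Of the 36 members 16 were lower at 30 than at 1 μg/kg and 5 were higher, beside 16.7% and 20.3% of all genes. Among the GTPases the log2 fold change from 1 to 30 μg/kg was -1.77 for Gbp6, -1.45 for Iigp1, -1.01 for Irgm1 and -0.95 for Gbp7, the last lost in 6 of 10 fits without 1 library (-0.98 to -0.75). In antigen processing it was -1.22 for Tap1 and -1.14 for Psmb9. The adjusted p by edgeR was 0.000121 for Gbp6, 6.14e-05 for Tap1 and 7.17e-05 for Psmb9. Irf1 was lower too (-0.83, adjusted p = 0.00333), though not with total-count scaling (-0.45), and the members higher at 30 μg/kg were Usp18, Oasl2, Oas1a, Trim30a and Ifit2. With total-count scaling, which shifted the median of all genes to 0.43, 8 members were lower and 8 higher, beside 9.58% and 35.7% of all genes, and Gbp6, Tap1, Psmb9, Iigp1 and Irgm1 stayed among the lower ones. In fits without 1 library 17 to 25 members were called, a range given without shares of all genes. Without replicate 5 of 30 μg/kg Igtp was called too (-2.16).

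Between mice of the same dose the members varied together. After the group means had been removed, the median correlation of log2 CPM over 40 libraries was 0.37 for the 630 pairs of members and 0.000228 for all pairs of genes tested. This is a description, since all members of a library share its depth and its mix of cells. The median was 0.78 within antigen processing, 0.59 within the GTPases, 0.58 within the transcription factors, 0.28 within the sensors, 0.26 within the effectors and 0.14 within ISG15 and its regulators. The pairs most alike were Irgm1 with Igtp and Igtp with Tap1 (0.91 each), followed by Irf1 with Irgm1 (0.86). Over all member pairs the median was 0.26 without replicate 1 of vehicle and replicate 5 of 30 μg/kg. The medians by role and the single pairs were not taken without these libraries. Replicate 5 of 30 μg/kg deviated from its group mean by 2.56 in Igtp, 1.13 in Irgm1, 1.10 in Irf1 and 1.08 in Tap1 (log2 CPM).

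**Figure D4:**
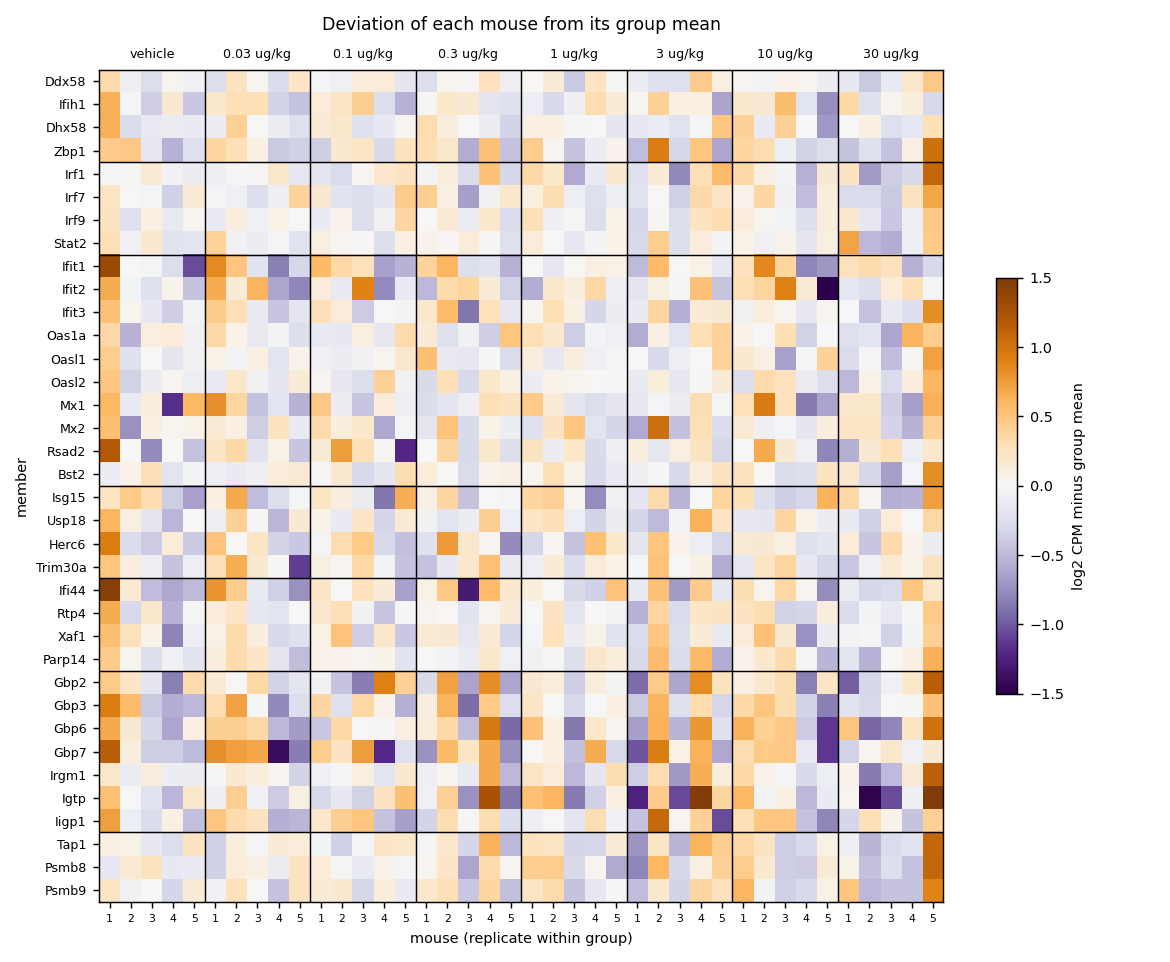
Deviation of each mouse from the mean of its group in log2 CPM (color, saturated at 1.5 in both directions) for the 36 members (rows, by role) in 40 mice (columns, by group and replicate). Replicate 1 of vehicle is orange in most rows and was the highest of its group for 29 members, and replicate 5 of 30 μg/kg is darkest in the GTPase and antigen processing rows and was the highest for 27.

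The rest of the interferon pathway was looked at through 4 further lists. None of the 21 interferon ligand genes with a match passed the filter on low counts. Ifnb1 had 0 counts in all 40 libraries, and Ifng, the gene of interferon gamma, had 23 counts in all, at most 4 in 1 library, so that changes in either were not detectable at this depth. Of the 20 receptor and signal transduction genes tested, 7 rose and 3 fell at 30 μg/kg, where 23.2% of all genes rose and 18.9% fell.

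Among the genes of that list called at 30 μg/kg with a mean of at least 100 counts in some group, those with the largest changes were Irf8, a factor of macrophages and dendritic cells (2.33 ± 0.23, adjusted p = 4.15e-11), Il10rb, a receptor chain shared by interferon lambda and interleukin 10 (1.67 ± 0.23), Socs3, a feedback inhibitor (1.41 ± 0.56, adjusted p = 0.0314) and Irf2, an antagonist of IRF1 (-1.06 ± 0.13, adjusted p = 9.38e-09). Of the 21 nucleic acid sensing genes tested, 9 rose and 2 fell at 30 μg/kg, beside the same 23.2% and 18.9% of all genes, and those named by the same limits were the endosomal RNA receptors Tlr7 (3.75 ± 0.43) and Tlr8 (3.31 ± 0.51), the DNA sensor Aim2 (2.85 ± 0.46) and Tmem173, which encodes STING (2.55 ± 0.29). Of 50 other interferon-induced genes tested, 11 rose and 1 fell at 1 μg/kg, beside 2.15% and 0.637% of all genes, and 17 rose and 10 fell at 30 μg/kg, beside 23.2% and 18.9%. Ifitm3, which blocks virus entry, went from 330 ± 24 CPM in vehicle mice to 72.7 ± 27 CPM (-2.18 ± 0.19, adjusted p = 1.56e-12). Gbp10 was at 5.32 ± 2.4 CPM in vehicle mice, 18.2 ± 4.9 at 1 μg/kg and 0.815 ± 1.1 at 30 μg/kg (-2.73 ± 0.62, adjusted p = 0.000289). Cd274, the checkpoint ligand PD-L1, rose at 1 μg/kg (1.52 ± 0.34, adjusted p = 0.00463) and at 30 μg/kg (2.49 ± 0.34), as did Oas3 at the latter dose (2.14 ± 0.29).

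Markers of the cells of the liver moved over the same doses. The summed level of 14 macrophage and Kupffer cell markers was 237 to 327 CPM in vehicle mice, 447 to 495 CPM at 1 μg/kg and 843 to 2106 CPM at 30 μg/kg, where 14 of 14 rose. Of the neutrophil and monocyte markers 6 of 6 tested rose at 30 μg/kg, of the T and NK cell markers 6 of 10, of the dendritic cell markers 5 of 9, of the B and plasma cell markers 4 of 5 and of the endothelial markers 4 of 7. The summed hepatocyte markers dropped to 28827 to 59890 CPM, and 5 of 6 fell. Over all genes 23.2% rose and 18.9% fell at 30 μg/kg under TMM scaling. The marker counts were not taken with total-count scaling. The summed T and NK cell markers went from 3.55 to 7.49 CPM in vehicle mice to 7.70 to 16.8 CPM at 30 μg/kg. Replicate 5 of 30 μg/kg, high for 27 members, had the highest macrophage sum (2106 CPM) and T and NK sum (16.8 CPM) of its group. Replicate 1 of vehicle, high for 29 members, had the highest macrophage sum of its group, 327 CPM. Replicate 5 of vehicle, high for 2 members, was close to it at 325 CPM. The T and NK sum of replicate 1 of vehicle was 5.27 CPM, inside the range of its group. The part of these shifts in the members' levels was not tested.

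**Figure D5:**
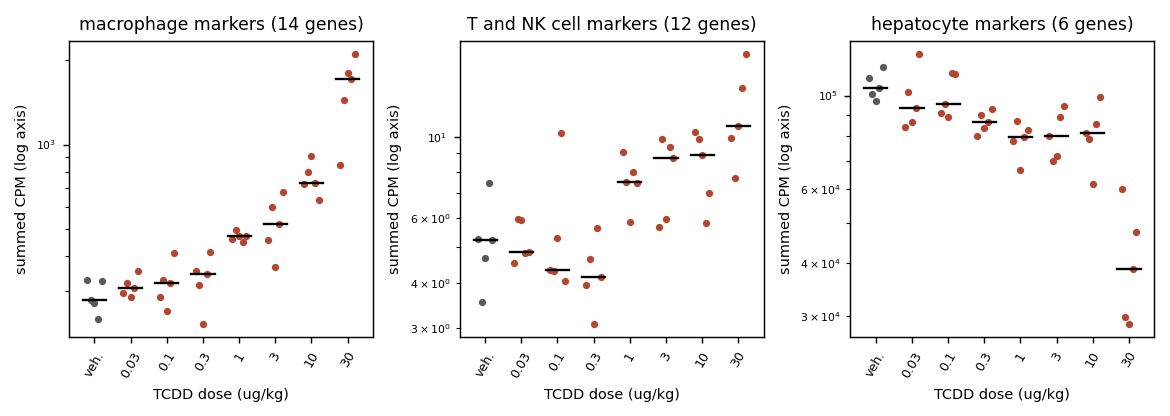
Summed CPM (log axes) of 14 macrophage, 12 T and NK cell and 6 hepatocyte marker genes in every mouse (points) with group medians (bars), in vehicle (gray) and at 7 TCDD doses (μg/kg, red). At 30 μg/kg every macrophage sum, from 843 to 2106 CPM, is above the vehicle range of 237 to 327 CPM and every hepatocyte sum is below it.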

How the data were processed

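RNA from 40 livers was sequenced by the submitters as paired-end libraries, and the authors deposited counts per gene as STAR writes them, without normalization. The submitters' processing notes name FastQC 0.11.7, Trimmomatic 0.39, STAR 2.7.3a and the builds GRCm39 and mm10, with no role given. The unstranded counts were used because the libraries keep no strand, so reads of overlapping genes on opposite strands cannot be told apart. Reads mapped to several places are not counted, which makes members with close copies (the Ifit, Oas, Gbp, Irgm and Trim30 families) uncertain. Rows for reads in no gene or in several places, 19.2% to 28.7% of reads, were left out. A deposited normalized table was not used. Symbols were matched to 52083 of 55359 identifiers.

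The counts went into edgeR 4.0.16 (R 4.3.3), with filterByExpr (minimum count 10, minimum total 15), TMM scaling and a quasi-likelihood fit with 1 mean per dose over 40 libraries. Each dose was tested against vehicle, 30 against 10 μg/kg, and a slope over steps 0 to 7, with Benjamini-Hochberg adjustment over 15373 genes and calls at a fold of at least 1.5 and an adjusted p under 0.05. SE is from the fit and SD is between mice. The p-values set a group difference or a slope against the spread between mice, estimated over the 40 libraries. The scripts were tested on simulated data. Alternatives were DESeq2 1.42.0, RLE size factors, total-count scaling, other filters, numbering run and leaving out libraries. The members, lists and tests were chosen with earlier results of these data known. All values per mouse are given for the member with the highest mean CPM and that with the largest change at 30 μg/kg in each role, and for members called at 1 μg/kg or below. Igtp, Isg15 and Ifit1 were added after their values were seen. Of the further lists, up to 4 genes called at 30 μg/kg with the largest change and a mean of at least 100 counts in some group are named, with Ifng and Ifnb1, and 1 gene is not reported here.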

Additional observations from a re-analysis of the deposited data

Results flagged for a closer look

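For the 13 members whose levels are given in every mouse, each of the 104 sets of 5 mice was checked for a mouse far from the others, by the gap of the highest or lowest mouse to the next over the whole range of the group (Dixon's critical value 0.71). Chance alone gives about 1 such set in 20, and 8 sets held such a mouse. Dhx58 in vehicle had its highest mouse, replicate 1, at 17.7 CPM with the next at 10.5 CPM, and at 3 μg/kg its highest mouse, replicate 5, at 9.80 CPM with the next at 6.87 CPM. Stat2 at 0.03 μg/kg had its highest mouse, replicate 1, at 132 CPM with the next at 98.2 CPM, and at 0.1 μg/kg its lowest, replicate 4, at 83.1 CPM with the next at 99.4 CPM. Usp18 at 0.3 μg/kg had its highest mouse, replicate 4, at 11.4 CPM with the next at 8.11 CPM. Parp14 at 0.1 μg/kg had its lowest mouse, replicate 5, at 25.5 CPM with the next at 30.2 CPM. Gbp2 at 10 μg/kg had its lowest mouse, replicate 4, at 4.89 CPM with the next at 9.31 CPM. Tap1 at 30 μg/kg had its highest mouse, replicate 5, at 51.7 CPM with the next at 23.1 CPM, and that library was also the highest of its group for 27 of 36 members.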

How the results depend on the processing

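No paired analysis was possible because the title numbers are each used once and pair no mice across groups. At 0.03, 0.1 and 0.3 μg/kg no member was called under any alternative run. At 1 μg/kg 7 members were called, against 1 within the first numbering run and 0 within the second, and 3 to 6 without 1 library. At 3 μg/kg 7 were called, 2 within each run, and 5 to 8 without 1 library. At 10 μg/kg 13 were called, 8 within the first run and 7 within the second, and 11 to 14 without 1 library. At 30 μg/kg 18 were called, 20 within the first run and 11 within the second, and 16 to 19 without 1 library. From 10 to 30 μg/kg 9 were called, 2 within the first run, and 6 to 11 without 1 library. Within the second run that contrast lost the calls of Oas1a, Bst2 and Psmb9 and gained none. Each run holds fewer mice per group, and the cause of the differences between runs was not tested. The counts in this paragraph are given without shares of all genes and describe the members alone. Total-count scaling gave 7 higher and 0 lower at 1 μg/kg, 8 and 1 at 3 μg/kg, 7 and 4 at 10 μg/kg, and 19 and 6 on the slope, where TMM gave 7 and 11.

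Of 718 values of members at 30 μg/kg under alternatives, 629 kept direction and call, 25 lost the call, 10 gained it and 54 reversed, the last in 16 members, none of them called. The reversed log2 fold changes were, with total-count scaling, Zbp1 0.42, Irf1 0.29, Irf7 0.15, Ifit3 0.39, Rsad2 0.41, Rtp4 0.32, Parp14 0.21, Gbp6 0.16, Gbp7 0.46, Tap1 0.29, Psmb8 0.39 and Psmb9 0.24. Within the second run they were Zbp1 0.62, Irf1 0.060, Ifit3 0.29, Rsad2 0.39, Rtp4 0.25, Parp14 0.081, Gbp6 0.14, Gbp7 0.66, Tap1 0.011 and Psmb8 0.22, and within the first run Ddx58 -0.059, Ifi44 -0.49, Xaf1 -0.11 and Igtp -0.76. A mean of at least 50 counts gave Zbp1 0.018 and Gbp7 0.036, numbering run as a covariate Zbp1 0.039, Rsad2 0.029 and Gbp7 0.074, and no filter Gbp7 0.0014. Without both libraries that stood apart the values were Rsad2 0.32, Gbp7 0.37 and Igtp -0.46. Without 1 library the ranges were -0.42 to 0.088 for Zbp1, -0.38 to 0.080 for Ifit3, -0.25 to 0.36 for Rsad2, -0.032 to 0.75 for Ifi44, -0.32 to 0.042 for Rtp4, -0.15 to 0.41 for Gbp7, -0.64 to 0.93 for Igtp and -0.49 to 0.028 for Psmb8.

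Comparisons of 1 with 30 μg/kg, total-count scaling of co-variation and the fits without both libraries were added after the data were examined. The floor of 3 counts lay below the level of every member, and depth left the interferon ligands untested.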
